A study of Mus musculus with 22 samples.

Results

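The genes that release calcium from the endoplasmic reticulum (ER) and pump it back were followed in single mouse astrocytes whose calcium response to ethanol (EtOH) was known. They were chosen by symbol from the count matrix and comprise 8 of its 23453 gene symbols: 3 inositol 1,4,5-trisphosphate (IP3) receptors (*Itpr1*, *Itpr2* and *Itpr3*), 3 ryanodine receptors (*Ryr1*, *Ryr2* and *Ryr3*) and 2 sarco/endoplasmic reticulum Ca2+-ATPases, the SERCA pumps (*Atp2a2* and *Atp2a3*). The rule used symbols alone, and the 8 genes are described below in 22 cells of 4 response types.

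The cells were cortical astrocytes in primary culture from newborn C57BL/6 pups. All cultures were shaken and given cytosine arabinoside against contaminating cell types, deprived of serum before the experiment and loaded with the calcium indicator Fluo-4. EtOH was applied acutely, ATP was applied at the end of an experiment, and each cell was named by the shape of its calcium signal: sustained (S-type, 6 cells), transient (T-type, 6 cells), mixed (M-type, 5 cells) or no response (NR, 5 cells). The NR cells had therefore met EtOH too, and there was no unexposed group among the libraries. The RNA of each cell, drawn up with a pipette, was amplified in 2 rounds and sequenced. According to the methods the sequenced cells met the highest dose of EtOH used and were collected at either of 2 times after it. The labels do not tell which of these times, which pup or which culture a cell belongs to, so a response type was treated as 1 sample, no test between types was made, and the spread between cells is shown in its place.

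IP3 receptors are channels in the ER membrane that open when IP3, made after receptors of the cell surface activate phospholipase C, binds them together with calcium, and they are the main route of calcium release in astrocytes. Ryanodine receptors are larger channels that open on a rise of cytosolic calcium and are best known from striated muscle and neurons. SERCA pumps use ATP to return calcium to the ER and so refill the store and help to end a calcium signal. Astrocytes in the brain are known for *Itpr2* as their leading IP3 receptor, and SERCA2, the product of *Atp2a2*, is the housekeeping pump of most cells.

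A library held between 2937786 and 22131076 exonic reads, and the smallest and the second smallest totals were both T-type (2937786 in T-type cell 3 and 6568630 in T-type cell 4). Counts were divided by a size factor for each cell and are called normalised read counts here; the level of a gene in a response type is their mean over its cells. Size factors lay between 0.183 and 1.56 in T-type and between 0.923 and 2.32 in the other types. They did not follow depth alone: T-type cell 2 had 0.276 with 12564138 reads, and S-type cell 4 had 1.142 with 12229280. T-type cell 2 stood out with reads of 6319 genes, against 7442 to 13070 in the other cells. T-type cells 3 and 5 came next with 7442 and 8647, and the cells of the other types had 9272 to 13070. All 11 astrocyte markers, among them *Vim*, *Slc1a3* and *Aqp4*, had reads in every type. Markers of other cells were read too. The sum of the 8 microglial markers, all with a read, was highest in NR (up to 529 normalised read counts, in NR cell 1). Of 9 oligodendrocyte lineage markers 8 had a read, *Olig1* with 203458 reads in all 22 cells, and their sum ran from 2426 to 53351 in T-type, the highest in T-type cell 3, and up to 21368, 10332 and 7077 in M-type, S-type and NR. This sum in T-type came mostly from *Olig1* (level 16819), with *Olig2* next at 668. Of 8 mural and fibroblast markers 6 had a read, *Acta2* with 539975 reads in all 22 cells, and the sum reached 103133 in T-type cell 1, against 73581, 29878 and 16246 at most in S-type, M-type and NR. In T-type this sum was nearly all *Acta2*, with a level of 32297, and the next marker, *Pdgfrb*, stood at 22.5. Of 9 neuronal markers 8 had a read, and T-type cell 1 was highest in their sum as well (5784). The neuronal sum in T-type came mostly from *Map2* (level 1794) and *Tubb3* (410), with *Rbfox3* at 0.107 and *Snap25* at 2.54. These sums therefore do not show a mural or neuronal character. *Sox10*, *Cdh5*, *Cldn5*, *Rgs5*, *Myh11*, *Slc17a7* and *Ckm* had no read in any cell. The part of other cell types in the results below was not tested.

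*Atp2a2* and *Itpr1* were read in all 22 cells and made up nearly all of the reads of the 8 genes. *Atp2a2* had 165170 reads over the 22 cells and *Itpr1* had 51328, followed by *Itpr2* with 4718 reads in 18 cells. The remaining members were rare: *Itpr3* had 413 reads in 7 cells, *Ryr2* 85 in 5, *Ryr3* 52 in 9, *Ryr1* 40 in 7 and *Atp2a3* 4 in 3. For *Itpr3* and the 3 ryanodine receptors, a single cell held most of the reads, as the map of reads by cell shows. Of the 8 members, 7 had a read in at least 5 cells and entered the comparison between types; *Atp2a3* did not.

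**Figure D1:**
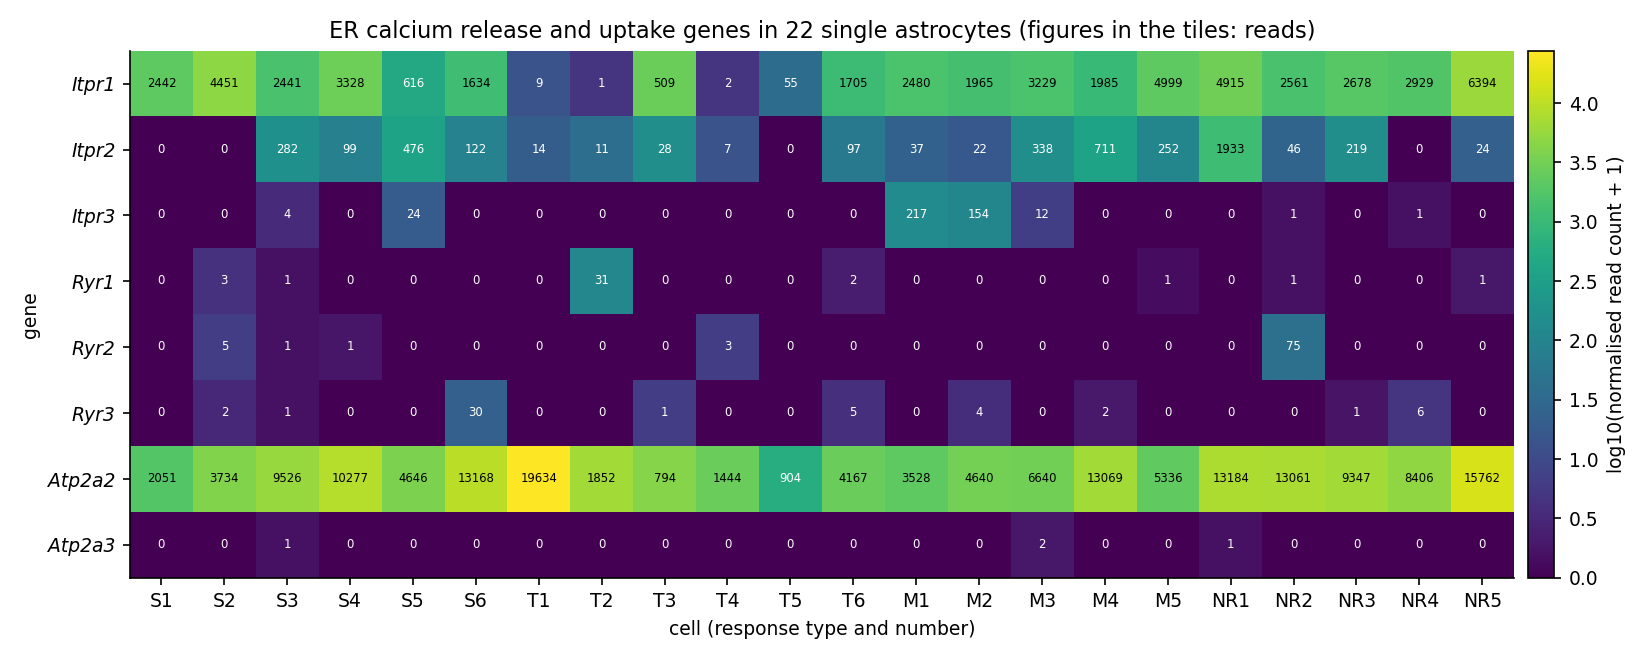
Each tile is 1 gene (rows) in 1 cell (columns, S-type cells S1 to S6, T-type T1 to T6, M-type M1 to M5 and NR1 to NR5); the colour is log10 of the normalised read count plus 1 and the figure in the tile is the number of reads. *Atp2a2* and *Itpr1* have a read in all 22 cells, and T2 and T4 show 1 and 2 reads of *Itpr1*.

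Because these transcripts differ in length, levels of different genes were compared per kilobase of annotated exon. Over the 22 cells *Atp2a2* stood at 1032 normalised read counts per kilobase, *Itpr1* at 96.0, *Itpr2* at 9.41 and *Itpr3* at 1.37. The ryanodine receptors lay below, with 0.249 for *Ryr1*, 0.100 for *Ryr3* and 0.0867 for *Ryr2* per kilobase. The order puts the pump above the receptors and *Itpr1* above *Itpr2* in these cultured cells. Amplification from the 3′ end favours the end of a transcript, and the exons of *Itpr1* span 18319 bases and those of *Ryr2* 28790 bases against 6081 for *Atp2a2*, so the distance between the pump and the long receptor transcripts also holds this effect, whose size was not tested.

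Promoters are shown for *Itpr2*, read in 18 of the cells, and *Atp2a3*, read in 3, as the most and the least often read of the 5 members for which RefSeq (GRCm38.p6) gave one; *Itpr3*, *Ryr1* and *Ryr2* were the other 3. Each sequence is the 250 bases before the gene's start, 5′ to 3′ on the gene's strand, with CG dinucleotides in capitals. That of *Itpr2* is chr6:146502224-146502473 on the minus strand and that of *Atp2a3* is chr11:72960919-72961168 on the plus strand.
Itpr2: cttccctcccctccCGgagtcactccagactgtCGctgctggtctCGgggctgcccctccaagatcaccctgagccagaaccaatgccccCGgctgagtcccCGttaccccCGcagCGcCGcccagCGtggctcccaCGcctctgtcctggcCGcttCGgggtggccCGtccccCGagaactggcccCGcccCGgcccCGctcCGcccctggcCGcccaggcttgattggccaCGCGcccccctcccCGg
Atp2a3: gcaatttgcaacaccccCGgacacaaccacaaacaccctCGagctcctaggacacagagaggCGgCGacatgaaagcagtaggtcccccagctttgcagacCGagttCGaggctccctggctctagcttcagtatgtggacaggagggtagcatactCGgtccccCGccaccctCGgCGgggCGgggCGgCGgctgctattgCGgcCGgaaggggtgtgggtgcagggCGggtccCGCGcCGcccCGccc

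The promoter of the often read *Itpr2* held 22 CG dinucleotides and that of the rarely read *Atp2a3* held 20, against a median of 6 over 32851 promoters of the same length, of which 92.1% held at least 1. *Itpr3* had 25, *Ryr2* 14 and *Ryr1* 6. The letters TATAAA, searched on both strands, were in none of the 5 and in 12.4% of all promoters. Among these 5 promoters the number of CG dinucleotides thus did not order the genes by how many cells had a read.

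Among the IP3 receptors, *Itpr1* (chr6:108213096-108551109, plus strand, GRCm38), the receptor best known from neurons, was the most read. On a log scale it showed its widest spread within T-type. Its normalised read counts in the 6 T-type cells were 12.7, 3.63, 2776, 3.65, 35.6 and 1092 for cells 1 to 6. The S-type cells ran from 483 to 4824 with a median of 1827, while M-type held 1551, 1376, 1514, 1030 and 2160 and NR held 2984, 1453, 1926, 1752 and 5927. Thus 4 of the 6 T-type cells lay below every cell of the other types, T-type cell 3 lay within the ranges of S-type and NR, and T-type cell 6 lay within that of S-type and below every NR cell. Those 4 cells had 9, 1, 2 and 55 reads of *Itpr1* in libraries of 15555483, 12564138, 6568630 and 19279519 reads. T-type cell 3, the smallest library, had 509 reads of it and T-type cell 6, with 17849353 reads in all, had 1705. The cells with few *Itpr1* reads thus included the second smallest library (T-type cell 4) and the library with the fewest genes read (T-type cell 2). They also included the largest T-type library (T-type cell 5), which had reads of 8647 genes, against 9272 to 13070 in the cells of the other types. T-type cells 1 and 4 had reads of 9760 and 9993 genes, within that range. T-type cell 3, with 509 reads of *Itpr1*, had reads of 7442 genes. The part of depth, and of the number of genes read in a library, was not tested.

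The levels of *Itpr1* were ordered NR (2808), S-type (2182), M-type (1526) and T-type (654). T-type versus NR gave a log2 ratio of -2.10, or 4.29-fold lower. Its 95% interval of -2.17 to -2.04 was taken from the summed reads and covers the counting error of reads only, not of molecules. It can be too narrow here, because the small size factor of T-type cell 3 (0.183) raised the weight of its 509 of the 2281 T-type reads. The ratio was -3.61 without T-type cell 3, which held 70.8% of the T-type level and the highest sum of oligodendrocyte lineage markers, and -1.63 without NR cell 5. T-type versus S-type gave -1.74 (interval -1.80 to -1.67), and -3.25 without T-type cell 3. Neighbours in the order overlapped in their cells, and S-type versus NR (-0.36) turned to 0.11 without NR cell 5. M-type versus NR was -0.88, where the median of all genes compared was -0.20, so *Itpr1* lay 0.68 below that median; leaving out cells moved it between -1.04 (without NR cell 2) and -0.41 (without NR cell 5).

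*Itpr2* (chr6:146108299-146502223, minus strand), the IP3 receptor for which brain astrocytes are known, was read in 4 of 6 S-type, 5 of 6 T-type, 5 of 5 M-type and 4 of 5 NR cells. The NR cells held 1173, 26.1, 158, 0 and 22.3 normalised read counts. M-type held 23.2, 15.4, 159, 369 and 109, S-type ran from 0 to 373 with a median of 88.6, and T-type ran from 0 to 152.7 with a median of 29.8. NR cell 1 was far above every other cell and made up 85.1% of the NR level, and the types otherwise overlapped.

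By the mean, *Itpr2* was highest in NR (276) and lower in M-type (135), S-type (120) and T-type (47.9). This order rested on NR cell 1: S-type versus NR was -1.20 on the log2 scale and 1.23 without that cell, and M-type versus NR was -1.03 and 1.39. T-type versus NR went from -2.53 (interval -2.77 to -2.29) to -0.10. NR cell 1 was also the cell with the highest sum of microglial markers (529). NR cells 2 and 4 had sums of 381 and 304, with 26.1 and 0 normalised read counts of *Itpr2*. The part of these markers in the *Itpr2* reads was not tested. T-type versus S-type, which does not use NR, was -1.33 (interval -1.58 to -1.09), and between -2.16 without T-type cell 3 and -0.54 without S-type cell 5.

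*Itpr3* (chr17:27057304-27122223, plus strand), the receptor best known from secretory epithelia, was largely an M-type read. M-type cells 1, 2 and 3 held 135.8, 107.8 and 5.626 normalised read counts, from 383 reads in all, and M-type cells 4 and 5 held 0. S-type cells 5 and 3 had 24 and 4 reads, NR cells 2 and 4 had 1 each, and none of the 6 T-type cells had a read, for which the exact 95% binomial interval reaches 45.9% as the counting error of 6 cells, with no account of cultures or pups. M-type versus NR gave a log2 ratio of 7.74 from 383 against 2 reads, with an interval of 5.88 to 10.79, and 6.93 without M-type cell 1. M-type overlapped NR nevertheless, since both had cells at 0.

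**Figure D2:**
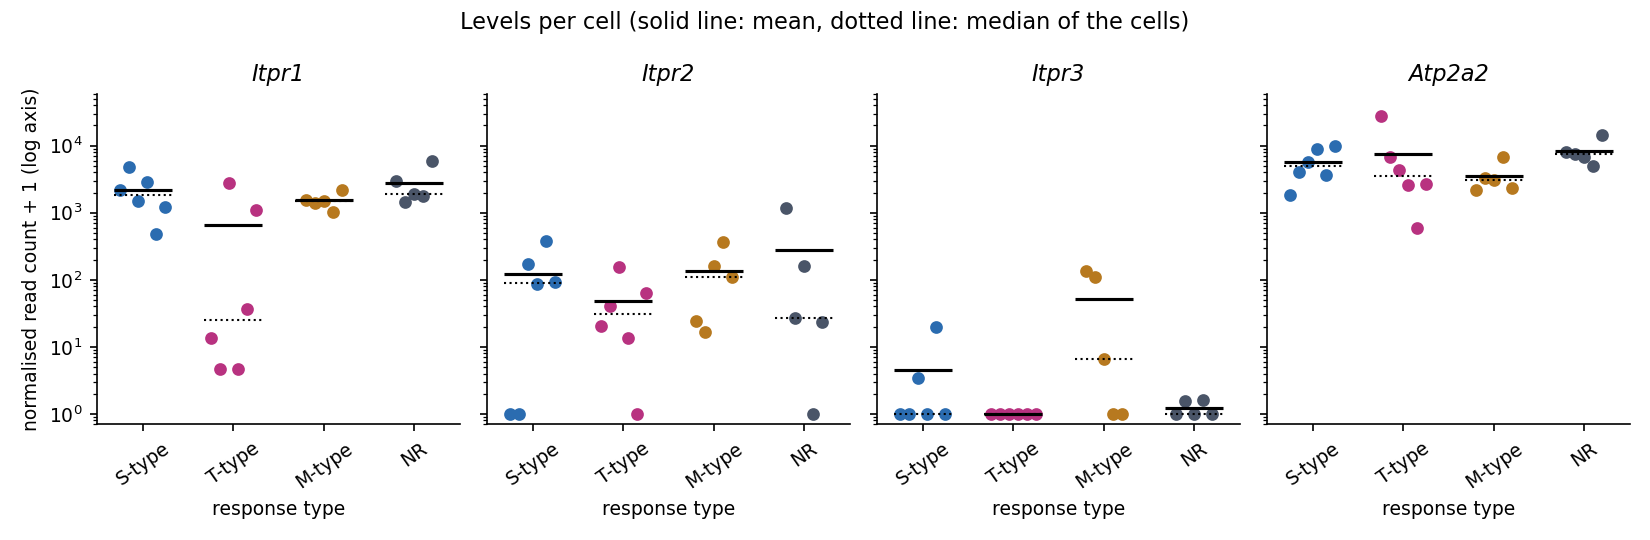
Normalised read count plus 1 on a log axis for *Itpr1*, *Itpr2*, *Itpr3* and *Atp2a2*; each point is 1 cell, solid lines are means and dotted lines medians of a response type. Mean and median part most for *Itpr1* in T-type (654 against 24.2) and for *Itpr2* in NR (276 against 26.1).

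The composition of the IP3 receptors was taken from the level of each type and within each cell. By the levels of the types, *Itpr1* gave 85.1% of the IP3 receptor level per kilobase in M-type, 89.2% in NR, 91.7% in T-type and 93.3% in S-type. *Itpr2* gave between 6.38% (S-type) and 10.8% (NR), and *Itpr3* reached 5.64% in M-type and at most 0.308% in the other types. Within cells, where the share does not depend on the size factor, the median for *Itpr1* was 63.8% in T-type, 85.25% in M-type, 94.0% in S-type and 97.75% in NR. T-type cells were spread widely about theirs: *Itpr2* made up 65.8%, 93.2% and 81.3% in T-type cells 1, 2 and 4, from 23, 12 and 9 reads of all IP3 receptors, and 0% to 6.58% in the other 3. By reads, *Itpr1* led in 19 of 22 cells and *Itpr2* in these 3. Outside T-type the lowest share of *Itpr1* was 49.1% in S-type cell 5, where *Itpr2* gave 47.0% and *Itpr3* 3.89%. In M-type cells 1 and 2, *Itpr3* stood at 14.9% and 13.6%, above *Itpr2* (1.54% and 1.18%).

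**Figure D3:**
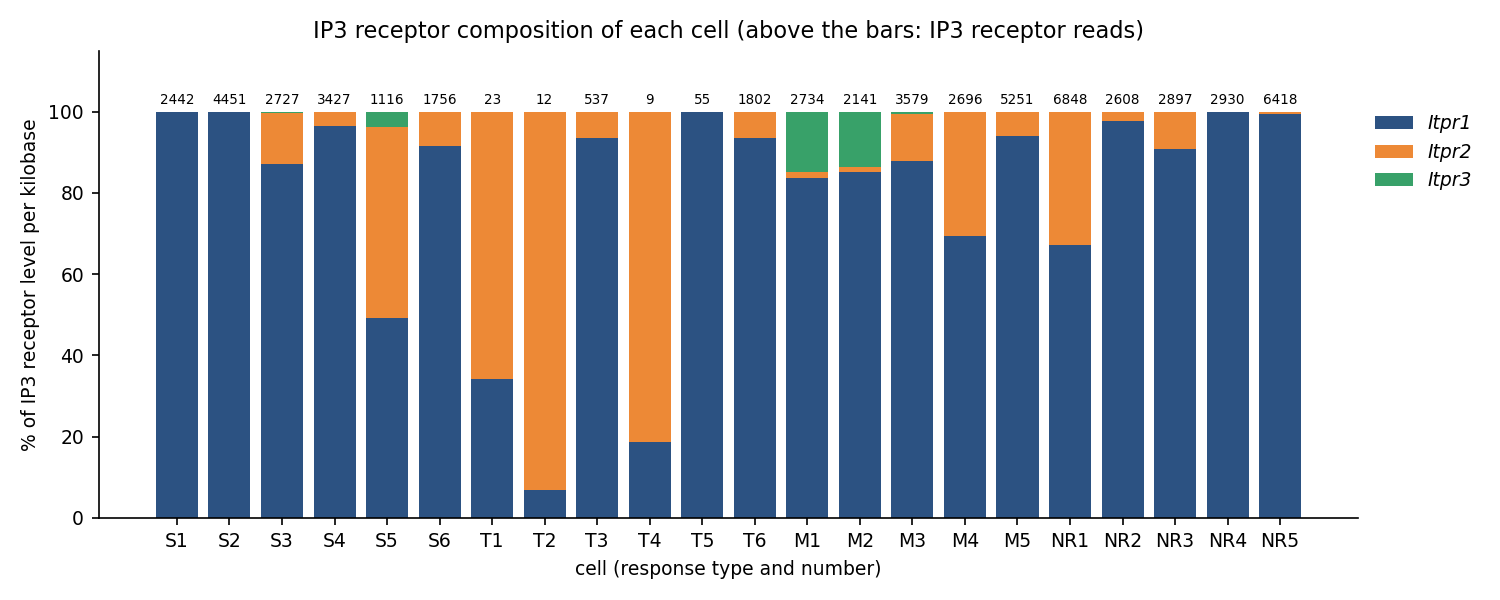
Stacked bars give the percentage of the IP3 receptor level per kilobase that comes from *Itpr1*, *Itpr2* and *Itpr3* in each of the 22 cells, with the number of IP3 receptor reads above each bar. *Itpr2* leads in T1, T2 and T4, which have 23, 12 and 9 reads, and *Itpr3* is visible in M1, M2 and S5.

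The ryanodine receptors were near the limit of detection in every type. *Ryr1* (chr7:29003344-29125179), the skeletal muscle form, had 31 of its 40 reads in T-type cell 2, and the other 6 cells with a read had 1 to 3. *Ryr2* (chr13:11553102-12106945), the form of heart and brain, had 75 of its 85 reads in NR cell 2, no read in M-type and at most 5 in any other cell. *Ryr3* (chr2:112631355-113217096), a form found in brain and smooth muscle, had 30 of its 52 reads in S-type cell 6. All 3 genes lie on the minus strand. No type had more than 3 cells with a read of any of them.

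Ratios of the ryanodine receptors between types followed these single cells. *Ryr1* was 5.99 on the log2 scale in T-type versus NR (33 against 2 reads) and -0.22 without T-type cell 2. *Ryr2* was -2.89 in S-type versus NR, and without NR cell 2, when NR had no read, S-type with its 7 reads was higher by at least 1.15 on the log2 scale, counted against 3 reads over the group. M-type without a read was at least 26.7-fold lower than NR, counted against 3 reads over the group; without NR cell 2 no fold can be given, since neither type then had a read. *Ryr3* was 2.28 in S-type versus NR and -0.63 without S-type cell 6. Up to 864 bases of *Ryr3* exons overlap *Aven* on the opposite strand, a gene with 17510 reads in 21 cells, and since it is not stated whether counting used the strand, the *Ryr3* reads could not be told apart from those of *Aven*.

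Of the pumps, *Atp2a2* (chr5:122453513-122502225, minus strand) was read in every cell and *Atp2a3* (chr11:72961169-72993044, plus strand), the SERCA3 gene of blood cells and epithelia, in 3. The normalised read counts of *Atp2a2* in NR were 8004, 7408, 6722, 5027 and 14612, and in M-type 2207, 3249, 3113, 6780 and 2305. S-type ran from 1821 to 9772 with a median of 4925. T-type held 27636, 6716, 4331, 2634, 586 and 2669. M-type cell 4 lay within the NR range and the other 4 M-type cells lay below every NR cell, while T-type cell 1 was the highest and T-type cell 5 the lowest of all 22. Reads per gene do not separate the splice forms SERCA2a and SERCA2b of *Atp2a2*.

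M-type versus NR of *Atp2a2* was -1.24 on the log2 scale (interval -1.26 to -1.22), or 1.04 below the median of all genes compared, and between -1.62 without M-type cell 4 and -0.94 without NR cell 5. S-type versus NR was -0.56, and between -0.78 and -0.26 with cells left out in turn. T-type versus NR was -0.17 as a mean, but T-type cell 1 made up 62.0% of the T-type level, and without it the ratio was -1.30. That cell had the highest mural and neuronal marker sums, which in T-type came mostly from *Acta2* and from *Map2* and *Tubb3*. With all cells kept, T-type versus NR was -0.797 by CPM of the pooled reads and -0.885 by mean CPM, so it also depended on the scaling. T-type versus S-type was 0.39, -0.75 without T-type cell 1, and -0.36 by CPM of the pooled reads. *Atp2a3* had 1 read in S-type cell 3, 2 in M-type cell 3 and 1 in NR cell 1, so that *Atp2a2* gave at least 99.99% of the SERCA level per kilobase in every type.

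Transcripts for refilling and for IP3-driven release were set against each other by the ratio of *Atp2a2* to the 3 IP3 receptors, both per kilobase, within each cell. Neither protein nor calcium flux enters this ratio. It was 5.44, 15.0, 9.55, 8.64 and 7.39 in the NR cells and 3.58, 6.07, 5.45, 13.7 and 3.03 in the M-type cells. S-type ran from 2.53 to 22.2 with a median of 9.62. In T-type cells 1 to 6 the ratio was 2247, 382, 4.401, 408, 49.5 and 6.88, from 23, 12, 537, 9, 55 and 1802 IP3 receptor reads. T-type cells 1, 2, 4 and 5 were thus above every cell of the other types, and T-type cells 3 and 6 within their range. In 3 of those 4 cells the pump was not above its level in the other types: *Atp2a2* per kilobase was 1105, 433 and 96.4 in cells 2, 4 and 5, against 299.5 to 2403 in the other 3 types, while the summed receptors stood at 2.89, 1.06 and 1.95 per kilobase against 53.7 to 325. T-type cell 1 combined 2.02 per kilobase of receptors with 4545 of the pump. The sum of receptors per kilobase had a median of 116 in NR, 106 in S-type, 94.0 in M-type and 2.46 in T-type.

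**Figure D4:**
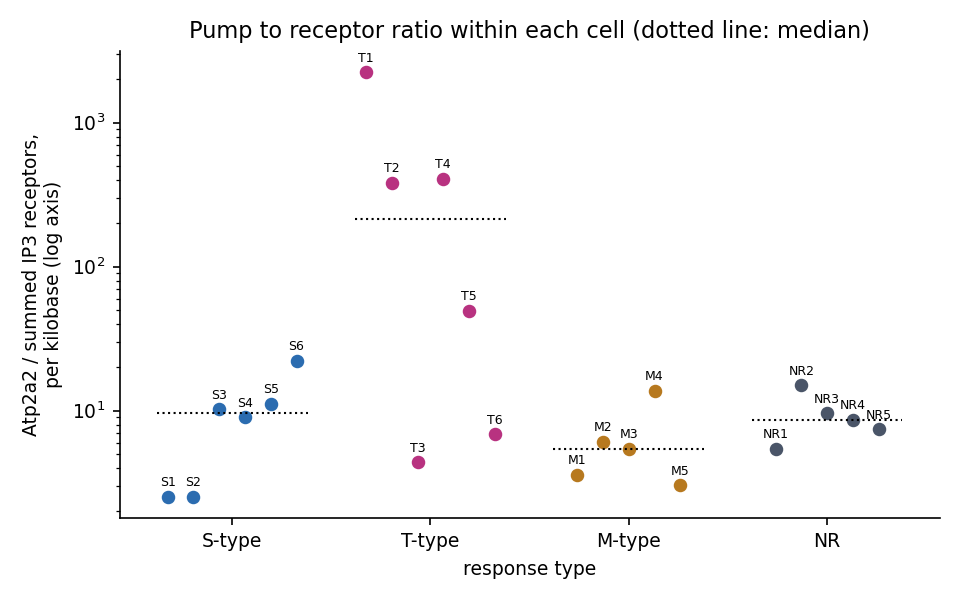
Ratio of *Atp2a2* to the summed IP3 receptors per kilobase on a log axis; each point is 1 cell and dotted lines are medians of a response type. T1, T2, T4 and T5 lie between 49.5 and 2247, and the 16 cells of the other types lie between 2.53 and 22.2. The ratios of T1, T2, T4 and T5 rest on 23, 12, 9 and 55 IP3 receptor reads.

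Members that passed 2-fold were counted against the same count over all genes with a ratio. In T-type versus NR, 1 of 6 members (*Ryr1*) was higher, where 28.4% of 12508 genes were, and 3 (*Itpr1*, *Itpr2* and *Ryr2*) were lower, where 32.8% were. M-type versus NR had 1 of 6 higher (*Itpr3*; 19.8% of 12616 genes) and 3 lower (*Itpr2*, *Ryr2* and *Atp2a2*; 28.1%). In S-type versus NR, 3 of 7 were higher (*Itpr3*, *Ryr1* and *Ryr3*; 25.1% of 12621 genes) and 2 lower (*Itpr2* and *Ryr2*; 22.5%). The higher *Ryr1* rested on 4 against 2 reads (log2 ratio 1.11, interval -1.70 to 4.57), so its direction is open. That of *Itpr3* rested on 28 against 2 reads (3.93, and 1.06 without S-type cell 5). T-type versus S-type had 1 of 7 higher (*Ryr1*; 25.7% of 12517 genes) and 4 lower (*Itpr1*, *Itpr2*, *Itpr3* and *Ryr3*; 32.5%). In either direction this made 5 of 7 members in S-type versus NR (47.6% of all genes), 4 of 6 in T-type versus NR (61.2%), 4 of 6 in M-type versus NR (47.9%) and 5 of 7 in T-type versus S-type (58.2%). A change of this size was thus common among all genes of these single cells. The 3 comparisons with NR share the NR cells. In none of the 4 comparisons did the cells of the types stand apart for a member. Over all genes a 2-fold difference without overlap was seen, higher and lower in turn, in 0.184% and 0.807% of genes in T-type versus NR. The shares were 0.277% and 0.317% when M-type was set against NR, 0.198% and 0.206% when S-type was, and 0.128% and 0.655% when T-type was set against S-type.

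**Figure D5:**
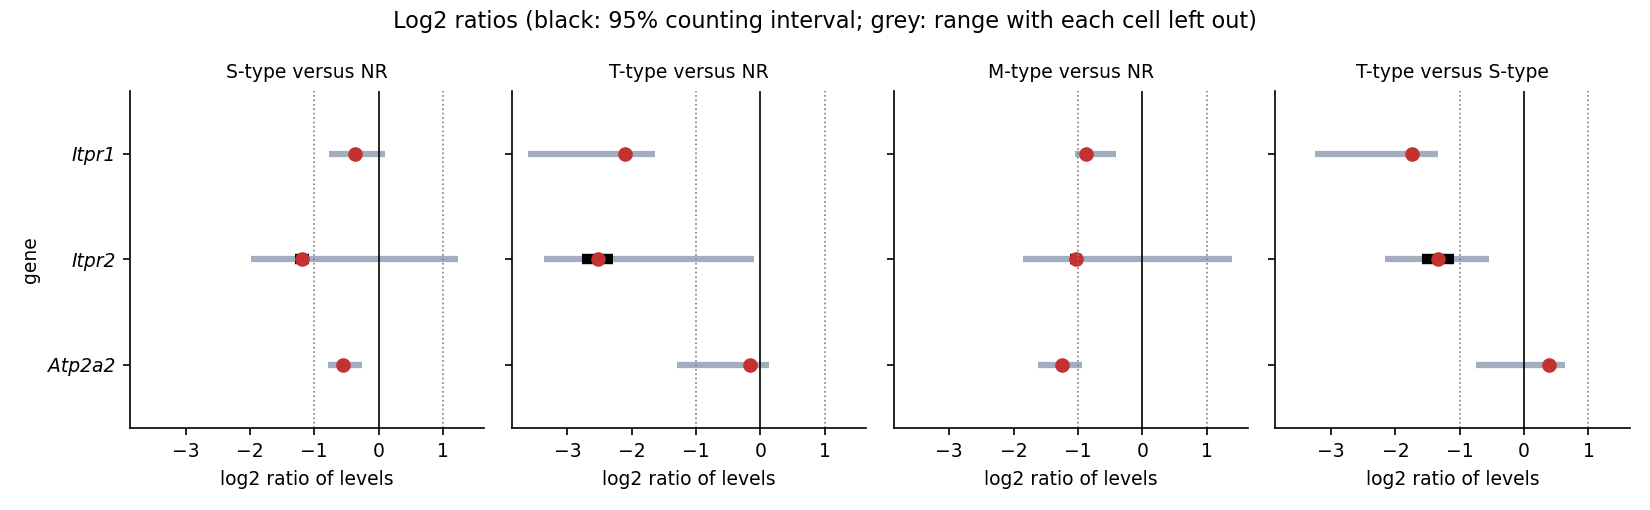
Log2 ratio of levels (red points) of *Itpr1*, *Itpr2* and *Atp2a2* in the 4 comparisons. Black bars are 95% intervals for counting error of the summed reads, mostly narrower than the point. Grey bars span the values with each cell left out in turn, and dotted lines mark 2-fold. The grey bar of *Itpr1* stays below -1 in T-type versus NR and in T-type versus S-type, and those of *Itpr2* reach 1.23 and 1.39 in S-type and M-type versus NR.

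Genes that act with the members were taken from 5 lists and are described by counts. Of the proteins that bind, regulate or degrade IP3 receptors, 25 were in the table. In T-type versus NR 5 of 23 with a ratio were higher by 2-fold and 5 lower (28.4% and 32.8% of all genes), with a median log2 ratio of 0.23 beside -0.07 for all genes. S-type versus NR had 6 higher and 3 lower of 24 (25.1% and 22.5% of all genes), and M-type versus NR 5 and 6 of 24 (19.8% and 28.1%). The most read were *Hspa9*, the mitochondrial chaperone that links IP3 receptors to mitochondria, *Mcl1*, an anti-apoptotic protein that binds them, and *Erlin2*, part of the complex that removes activated receptors. *Hspa9* and *Mcl1* stayed within 2-fold in all 4 comparisons. *Erlin2* was lower than NR in T-type (-1.96) and M-type (-1.10), and without NR cell 5, the cell with most *Itpr1* as well, these were -1.13 and -0.27.

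Of the enzymes that make and break down inositol phosphates, 10 had a ratio, and for none of them did the cells of the types stand apart. In T-type versus NR 2 were higher and 5 lower (28.4% and 32.8% of all genes), in M-type versus NR 0 and 5 (19.8% and 28.1%), and in S-type versus NR 1 and 3 (25.1% and 22.5%). The medians of the list were -1.14, -1.26 and -0.60, beside -0.07, -0.20 and 0.03 for all genes. *Impa1*, an inositol monophosphatase, stayed within 2-fold in each comparison with NR (-0.73, -0.60 and -0.75 in T-, M-, and S-type). *Inpp5a*, the 5-phosphatase that inactivates IP3, was 0.39 in S-type versus NR and -0.61 in T-type versus NR. *Ipmk*, a kinase of inositol polyphosphates, was 1.00 in S-type versus NR and 0.42 without S-type cell 2.

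Partners of the ryanodine receptors were measured in cells with few or no reads of the receptors themselves. Of 13 with a ratio, 5 were higher and 3 lower in T-type versus NR (28.4% and 32.8% of all genes), 2 and 6 in M-type versus NR (19.8% and 28.1%) and 0 and 3 in S-type versus NR (25.1% and 22.5%). *Fkbp1a*, the FKBP12 protein that stabilises the closed channel, was 1.35 in T-type versus NR and -0.07 without T-type cell 2. *Sri* (sorcin) and *Asph*, which also encodes junctin, stayed within 2-fold in all 4 comparisons.

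SERCA is restrained by small membrane peptides, of which the muscle peptides phospholamban (*Pln*) and sarcolipin (*Sln*) had no read in any of the 22 cells. *1810037I17Rik*, which encodes the SERCA-binding peptide another-regulin, had a read in every cell. Its normalised read counts in NR were 1109, 1688, 2034, 2102 and 668, and in M-type 2201, 4654, 2459, 2773 and 3118, so that every M-type cell was above every NR cell (log2 ratio 1.00, interval 0.97 to 1.03), in the comparison in which *Atp2a2* was -1.24. For M-type versus NR, 0.277% of all genes were higher by 2-fold without overlap. The lowest M-type cell was close to the highest NR cell, and without M-type cell 2 the ratio was 0.80, under 2-fold. T-type versus NR of *1810037I17Rik* was 1.97 and S-type versus NR 0.90, both with overlapping cells. *Canx*, the ER chaperone calnexin, stayed within 2-fold in all 4 comparisons. Over the 9 regulators with a ratio, 4 were higher and 1 lower in T-type versus NR (28.4% and 32.8% of all genes), 1 and 1 in M-type versus NR (19.8% and 28.1%) and 1 and 1 in S-type versus NR (25.1% and 22.5%).

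Among other calcium transport genes of the ER and Golgi, *Tmem38b* stood apart between types. It encodes TRIC-B, a cation channel of the ER that balances charge while calcium leaves the store. Its normalised read counts were 776, 217, 622, 367 and 590 in NR and 70.7, 200, 72.2, 307 and 321 in M-type. S-type ran from 0 to 157 with a median of 21.3, and T-type from 0 to 11.3 with a median of 0.912. Every S-type and every T-type cell was below every NR cell, as was so with a 2-fold difference for 0.206% and 0.807% of all genes, while M-type overlapped NR. The log2 ratios were -3.56 in S-type versus NR (interval -3.72 to -3.39), -7.09 in T-type versus NR (24 against 3775 reads, interval -7.73 to -6.51) and -1.41 in M-type versus NR. Of the 10 genes of this list with a ratio, 0 were higher and 3 lower in T-type versus NR (28.4% and 32.8% of all genes), 0 and 4 in M-type versus NR (19.8% and 28.1%) and 1 and 1 in S-type versus NR (25.1% and 22.5%). *Tmco1*, a channel that lets calcium out of an overfilled ER, was 1.36 in T-type versus S-type, *Tmem165*, a Golgi transporter, was -1.06 in T-type versus NR, and *Tmbim6*, an ER leak protein, stayed within 2-fold throughout.

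Across the 22 cells, 10493 genes were ranked by the Pearson correlation of log2 (normalised read count + 1) with each of the 3 members that had a read in at least 11 cells. The genes most like *Itpr1* were *Tmem18* (r = 0.892), *Gtf3c2* (0.888) and *Usp48* (0.885). *Itpr2* was followed by *Ascc3* (0.806), *Galnt4* (0.801) and *Fastkd2* (0.756), and *Atp2a2* by *Scarb2* (0.824), *Aptx* (0.764) and *Srgap2* (0.763). By Spearman rank correlation the genes named with *Itpr1* stood lower, at 0.644, 0.636 and 0.71 in the same order. Those named with *Itpr2* and *Atp2a2* lay between 0.719 and 0.843. Among the members, r was 0.377 for *Itpr2* with *Atp2a2*, 0.160 for *Itpr1* with *Itpr2* and 0.062 for *Itpr1* with *Atp2a2*. These values are descriptions, since the points share libraries, depths and size factors and were taken from the top of a long ranking.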

How the data were processed

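The RNA of 22 single astrocytes was measured. The authors amplified antisense RNA in 2 rounds, made stranded libraries, aligned paired reads to GRCm38 with STAR and counted uniquely aligned exonic reads per gene (VERSE in the methods, HTSeq in the submitters' notes); they deposited raw counts without normalization, with a column for each cell. Tool versions and the use of strand are not given in the sources used here. There were no molecular identifiers, so intervals cover counting error only.

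Size factors (medians of ratios) came from 3670 genes detected in each of the cells, and each count was divided by that of its cell (Python 3.11.15, NumPy 2.4.6, pandas 2.3.3). A ratio was formed for a gene with a read in at least 5 cells (12719 genes) and more than 3 reads in either type; a type at 0 was set to 3 reads over its summed size factors. Intervals of 95% for shares of cells were exact binomial (SciPy 1.17.1). For ratios they came from the exact binomial split of the summed reads of 2 types, centred on the ratio of levels. That split gives every read the same weight, so it can be too narrow where a cell with a small size factor holds much of a level. Lengths and positions came from GENCODE on GRCm38. Named partner genes were the 3 most read of a list and any whose types did not overlap; 1 gene that this rule selects is not reported here. Members, lists and rules were chosen with earlier results of these data known. Steps were tested on simulated Poisson counts of genes with a mean level of at least 10. The simulation had no added spread between cells, so it does not cover the rare members or the spread seen here. TMM factors came from edgeR 4.0.16 (R 4.3.3), used for scaling alone, and figures from matplotlib 3.10.9. Alternatives were TMM factors, pooled and mean CPM, no filter, a level of at least 10, a pseudocount of 1, thinned cells, medians, lengths of the longest transcript, detection from 5 reads and leaving out each cell.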

Additional observations from a re-analysis of the deposited data

Results flagged for a closer look

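For each member and type with a read, and for the pump to receptor ratio of each type on the log2 scale, a cell far from the others was looked for by Dixon's ratio of gap to range, in 33 groups of 5 or 6 cells. It marked 15. The usual rate of about 1 in 20 holds for normally distributed values, which these read counts were not shown to be. The number marked can therefore not be read against that rate. Groups in which most cells have no read are marked by any cell with reads.

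In NR, cell 1 had 1173 normalised read counts of *Itpr2*, with the next cell at 158. *Atp2a2* reached 27636 normalised read counts in T-type cell 1, with the next at 6716, and 6780 in M-type cell 4, with the next at 3249. *Itpr3* stood at 18.83 in S-type cell 5. *Ryr1* stood at 112.4 in T-type cell 2, 3.252 in S-type cell 2 and 0.432 in M-type cell 5. *Ryr2* stood at 42.54 in NR cell 2, 5.42 in S-type cell 2 and 5.472 in T-type cell 4. *Ryr3* stood at 22.26 in S-type cell 6 and 3.588 in NR cell 4. *Atp2a3* stood at 0.6091 in S-type cell 3, 0.9377 in M-type cell 3 and 0.6071 in NR cell 1, from 1 or 2 reads each. What sets these cells apart was not tested.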

How the results depend on the processing

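*Itpr1* kept a 2-fold lower level in T-type versus NR and T-type versus S-type under each of the 6 other settings run for its ratio (-2.84 to -2.10 and -2.48 to -1.74, or -6.26 and -6.18 for medians over cells) and without any single cell (-3.61 to -1.63 and -3.25 to -1.34). *Itpr2* reversed against NR with medians over cells, to 1.73 (S-type), 0.19 (T-type) and 2.02 (M-type), and *Ryr2* in S-type versus NR to 0.38. With cells left out in turn, *Itpr2* ran from -1.98 to 1.23 in S-type versus NR and from -1.85 to 1.39 in M-type versus NR, *Ryr2* from -4.84 to 1.15 (a bound, as NR then had no read) and *Ryr3* from -0.63 to 4.54 in S-type versus NR. In T-type versus S-type, *Ryr1* ran from -1.33 to 7.28 and *Ryr3* from -2.70 to 1.38. *Itpr3* ran there from -2.77 to 0.35, but T-type had no read of it, and the last value sets 3 reads for T-type against the 4 S-type reads left without S-type cell 5, so it shows no turn.

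Counts of members past 2-fold changed with medians over cells to 1 higher and 0 lower (S-type versus NR), 0 higher (T-type versus NR), 2 higher and 1 lower (M-type versus NR), and 0 higher and 2 lower (T-type versus S-type). With cells thinned to 2937786 reads they were 1 higher and 0 lower for S-type versus NR and 0 higher for each of the other 3; thinning left *Itpr3* with a read in 4 cells, fewer than the minimum. At a mean level of at least 10 they were 1 higher and 1 lower for S-type versus NR, 0 higher for T-type versus NR and 0 higher for T-type versus S-type, since the ryanodine receptors drop out. Mean CPM gave 1 lower for S-type versus NR. TMM factors, pooled CPM and mean CPM each gave 2 lower for M-type versus NR, and TMM factors and a pseudocount of 1 gave 2 higher for S-type versus NR. Thinned cells and a level of at least 10 gave 2 lower for T-type and for M-type versus NR, and 3 lower for T-type versus S-type. Medians gave 2 lower for T-type versus NR. With cells left out in turn, S-type versus NR had 2 to 4 higher and 1 to 2 lower, and T-type versus NR 1 to 2 higher and 2 to 4 lower. M-type versus NR then had 1 to 2 higher and 2 to 4 lower, and T-type versus S-type 0 to 2 higher and 2 to 5 lower. Scaling by pooled CPM moved the median of all genes in T-type versus NR from -0.07 to -0.54 and in T-type versus S-type from -0.09 to -0.56. No ratio was formed with at most 3 reads in both types, which touches *Itpr3*, *Ryr1* and *Atp2a3*; whether depth or the lack of a transcript sets these low reads was not tested. No paired analysis was possible because the replicate numbers follow accession order and link no cells.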
